A study of Mus musculus with 26 samples.

Results

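DN1eP-NKT cells were compared with the DN1eP precursors they were grown from. The comparison uses 8 of the 26 RNA-seq libraries of the series, 4 labelled DN1eP-NKT and 4 labelled DN1eP, chosen by their labels alone. DN1eP-NKT cells were Vα14Jα18 TCR positive and came from DN1eP thymocytes kept for 10 days on a layer of OP9/Dll-1 stromal cells with 5 ng/ml IL-2 and 5 ng/ml IL-7. DN1eP cells were sorted directly from the thymus, lacked that TCR on the surface, and per the study's design were lineage-negative, CD44+, CD25-, CD24low, CD5+, CD27+, Ly108- and CXCR3+. All cells were from C57BL/6 mice of 6 to 8 weeks. The other 18 libraries, sorted thymic NKT cells labelled NKT-1 (5, CD44-/NK1.1-), NKT-2 (7, CD44+/NK1.1-) and NKT-3 (6, CD44+/NK1.1+), served as a yardstick and are called stages 1, 2 and 3 here. RNA of 10 to 100 ng went into a SMARTer Ultra Low Input or a TruSeq v2 library, and the labels do not say which library had which kit. They also do not say whether libraries of a group come from separate animals or cultures, so p-values measure only the spread between these samples.

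Invariant NKT cells carry a TCR with the Vα14Jα18 alpha chain and recognise lipids on CD1d. They form in the thymus and acquire effector functions there, and subsets make interferon-gamma, IL-4 or IL-17. OP9 is a mouse bone marrow stromal line, and its Dll-1 form presents a Notch ligand that allows T cell development in a dish. IL-2 and IL-7 signal through the shared gamma chain and STAT5, and drive survival, growth and division of T cells.

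The libraries lay in 2 sets that did not follow the cell type. Levels are in FPKM, fragments mapped to a gene scaled by its length and by the library total. Genes at 1 FPKM or more had a median of 13.2 to 13.6 FPKM in the DN1eP-NKT libraries and of 8.08 to 8.94 FPKM in the DN1eP libraries. Thymic NKT libraries of every stage occurred in both sets, 9 in the higher and 9 in the lower. The first principal component, with 50.9% of the variance over 11663 genes, separated the sets. DN1eP-NKT libraries all belonged to the higher set and DN1eP libraries all to the lower one, so set and group cannot be told apart from these 8 libraries alone. A gene was therefore counted as changed only where its log2 change went beyond that of the sets. The change had to lie beyond 0 and beyond the difference between sets within each thymic stage. Its distance from the mean of those 3 differences, called the set-adjusted log2 change here, had to pass limma's test at an adjusted p of 0.05. That the set difference of thymic NKT cells carries over to DN1eP-NKT and DN1eP is assumed.

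**Figure D1:**
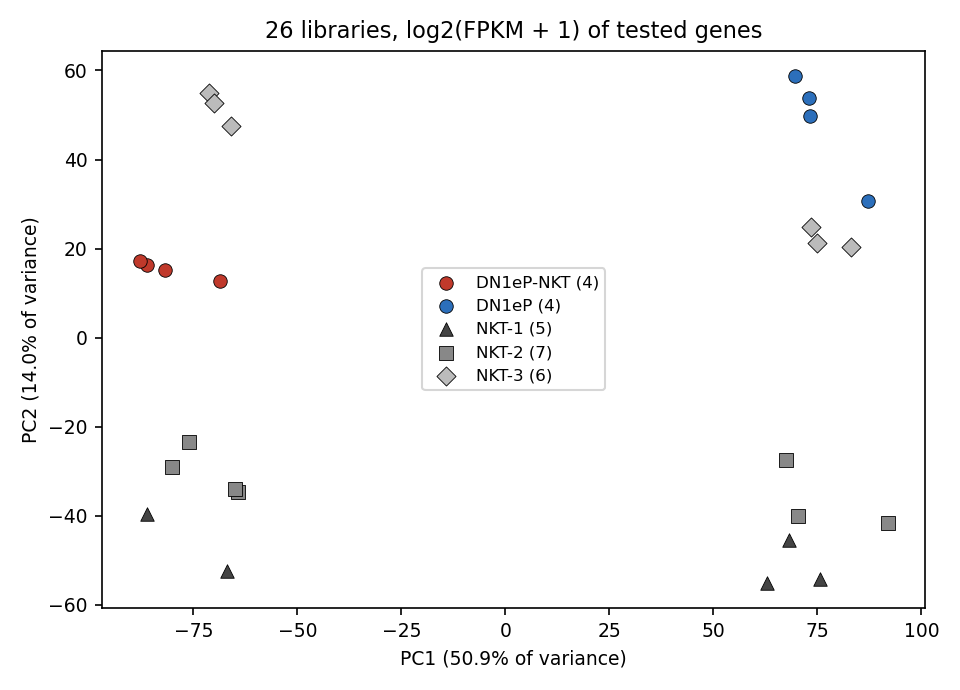
Scores of the 26 libraries on PC1 (x) and PC2 (y) from log2(FPKM + 1) of the 11663 tested genes, with 1 point per library. PC1 puts the 4 DN1eP-NKT libraries with 9 thymic libraries on the left and the 4 DN1eP libraries with 9 thymic libraries on the right.

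Library 1 stood apart within each group. In DN1eP, library 1 correlated with libraries 2 to 4 at Pearson's r of 0.883 to 0.907 over the tested genes, which are not independent replicates, and libraries 2 to 4 with each other at 0.934 to 0.940. In DN1eP-NKT the same ranges were 0.904 to 0.925 and 0.939 to 0.956. DN1eP library 1 held the myeloid and dendritic markers at a sum of 400.5 FPKM, against 41.9 to 49.1 FPKM in DN1eP libraries 2 to 4. Its mast cell and basophil markers summed to 80.2 FPKM, against 522 to 626 FPKM. Depth is not given in the files. As a guide to precision, half-widths of the deposited intervals were taken for genes at 20 to 100 FPKM. Their median was 7.01% in DN1eP-NKT library 1, 6.24% in DN1eP library 1 and 15.9% to 23.8% in libraries 2 to 4. Thymic libraries ranged from 5.53% to 6.31% in the lower set and from 6.88% to 21.9% in the higher set. DN1eP libraries 2 to 4 thus lay outside the range of the thymic libraries they are set against. General T cell markers (9 in the files: Cd3d, Cd3e, Cd3g, Cd247, Lat, Cd5, Cd6, Cd2 and Thy1) do not tell alpha-beta from gamma-delta T cells. They summed to 1661 to 2761 FPKM in DN1eP-NKT, 4464 to 6527 FPKM in DN1eP and 2243 to 6004 FPKM in thymic NKT cells. CD3 transcripts were thus abundant in DN1eP as well. Early progenitor markers summed to 9.80 to 25.1 FPKM in DN1eP-NKT, 17.0 to 29.3 FPKM in DN1eP and, in thymic NKT cells of the lower set to which DN1eP belongs, 6.97 to 9.93 FPKM in stage 1, 7.50 to 11.9 FPKM in stage 2 and 14.96 to 23.4 FPKM in stage 3. DN1eP was thus above stages 1 and 2 of its set and overlapped stage 3. TCR constant region genes were not analysed here.

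DN1eP-NKT libraries were set apart by genes of division, of the STAT5 response, of cholesterol synthesis and of stromal cells. These were in large part higher than in DN1eP. How far RNA of the OP9 layer enters the rises was not tested. Many genes of TCR signalling, of the IL-17 programme, of the chemokine ligands and of mast cells were lower. These are bulk libraries, in which fewer cells of a type and less RNA per cell cannot be told apart. Beyond the set difference, 1597 of 11663 genes were higher (13.7%) and 1413 lower (12.1%) in DN1eP-NKT, 25.8% in all. Asked for an excess over each of the 3 set differences separately, 678 were higher and 397 lower. The same contrast as deposited, with the set difference left in, called 5516 higher (47.3%) and 2582 lower (22.1%), 69.4% in all, which became 4490 and 3661 with upper-quartile scaling and 3778 and 4179 with quantile normalization. The median log2 change of all genes was 0.50 as deposited, 0.13 and -0.08 under those scalings, and -0.04 after set adjustment. Of the 1597 rises 1433, and of the 1413 falls 1092, were also called as deposited in the same direction. The other calls rest on the set difference. Libraries of DN1eP-NKT and DN1eP did not overlap for 1255 of the rises and 726 of the falls. Over all genes, DN1eP-NKT lay wholly above DN1eP in 41.1% and wholly below in 15.9%.

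**Figure D2:**
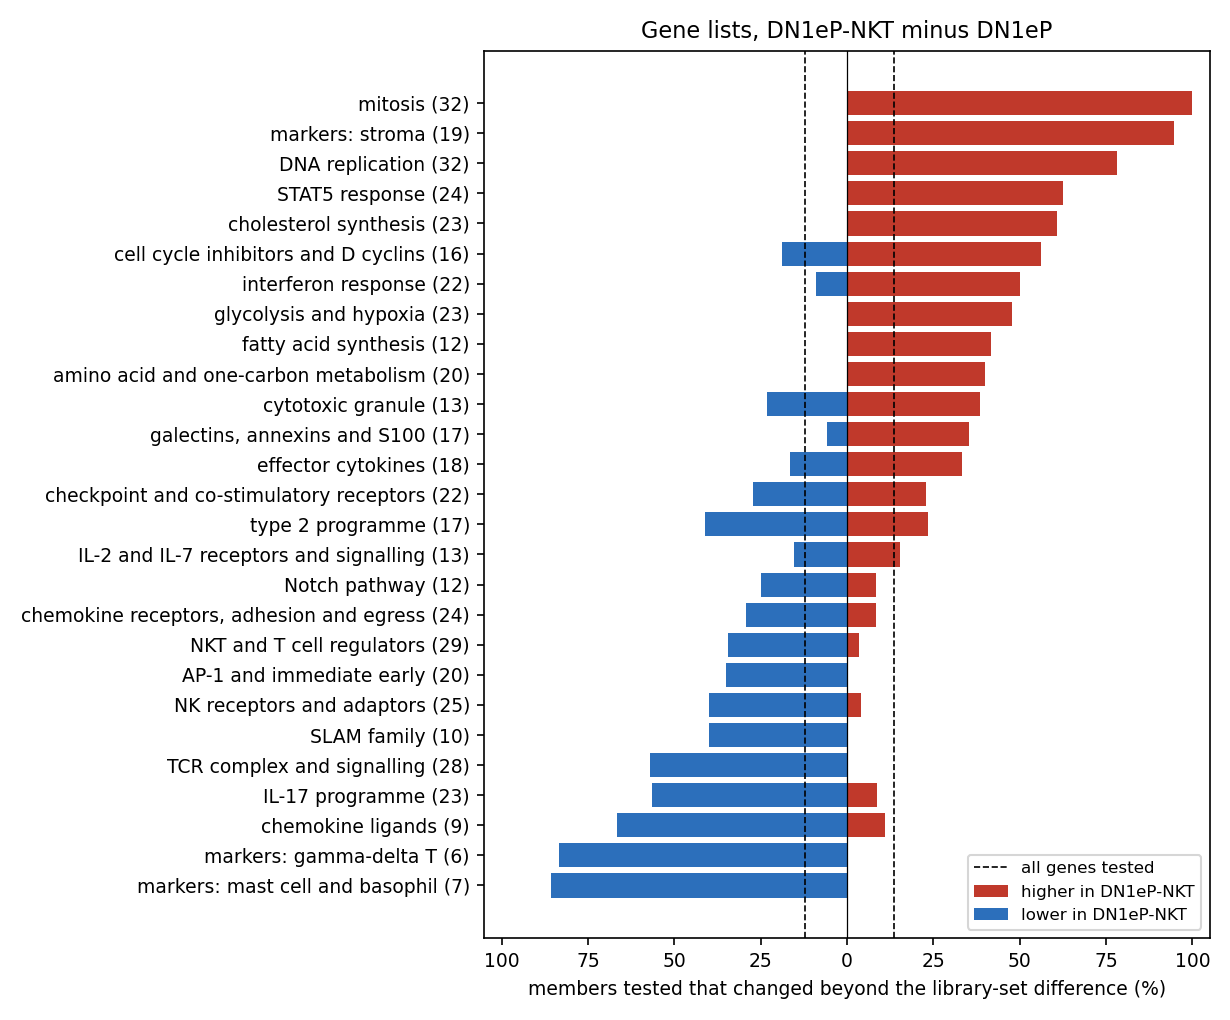
Share of the tested members of each gene list that changed beyond the library-set difference, with red bars to the right for members higher and blue bars to the left for members lower in DN1eP-NKT than in DN1eP. Dashed lines mark the 13.7% and 12.1% of all tested genes. Mitosis stands at 32 of 32 higher, and mast cell and basophil markers at 6 of 7 lower.

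The set-adjusted change is the difference of a pair of distances, each measured within 1 set: DN1eP-NKT minus thymic NKT cells of the higher set, and DN1eP minus thymic NKT cells of the lower set. This split was chosen after the data were seen. Of the 1597 genes that rose, 618 (38.7%) passed the test only for the DN1eP-NKT distance, 578 (36.2%) only for the DN1eP distance, 291 (18.2%) for both and 110 for neither. Of the 1413 that fell, 296 (20.9%) passed only for the DN1eP-NKT distance, 899 (63.6%) only for the DN1eP distance, 142 (10.0%) for both and 76 for neither. Falls thus mostly belonged to genes that DN1eP held above the thymic mean of its set. Rises were split between both sides, and the groups of genes differed in this, as described for each.

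**Figure D3:**
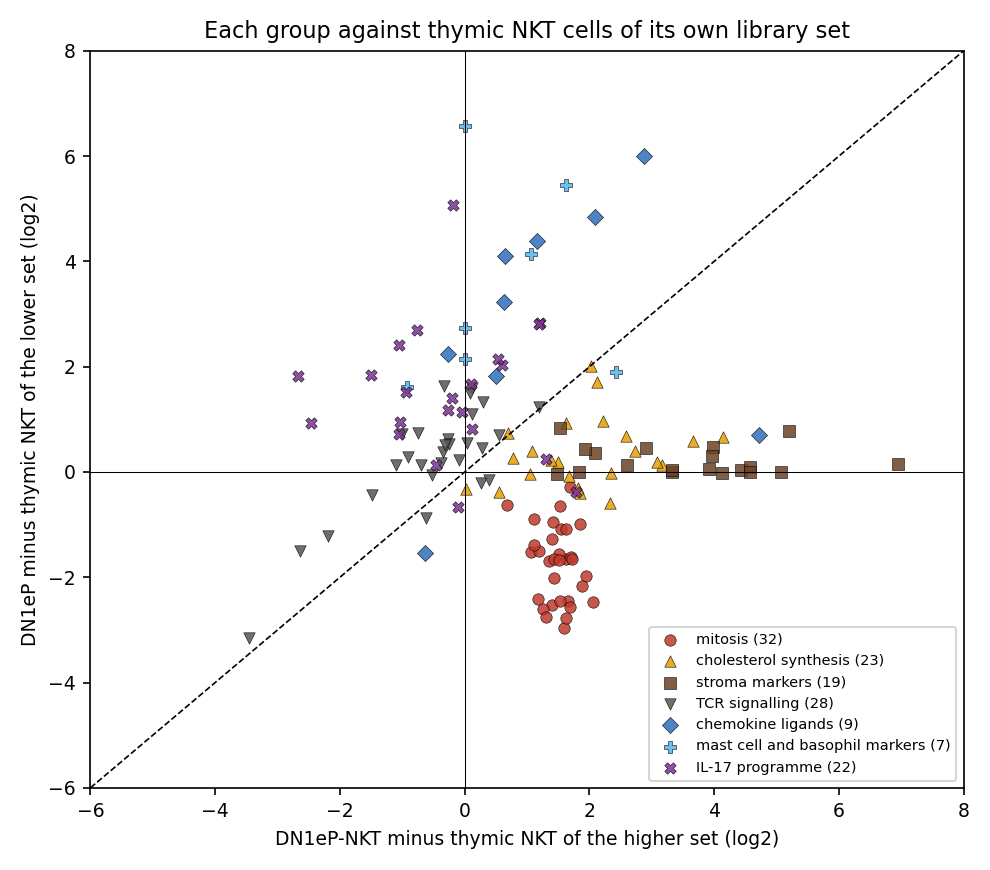
Mean log2 distance of DN1eP-NKT from thymic NKT cells of the higher set (x) against that of DN1eP from thymic NKT cells of the lower set (y), 1 point per tested gene of 7 lists. The dashed line marks equal distances, so points below it have a set-adjusted rise and points above it a fall. Most mitosis genes lie right of 0 and below 0, stroma markers and cholesterol genes right of 0 near 0 on the y axis, and mast cell markers above 0.

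Receptors of the culture cytokines moved in different directions. Il2ra (mm9 chr2:11564419-11614821), the alpha chain that raises affinity for IL-2, had 111, 92.7, 113 and 112 FPKM in DN1eP-NKT libraries and 14.4, 6.91, 10.1 and 8.14 FPKM in DN1eP libraries. No library of one group overlapped the other, and thymic NKT libraries held 0.205 to 6.42 FPKM. Its set-adjusted log2 change was 3.27 ± 0.42 (SE), adjusted p = 2.12e-06. Il2ra encodes CD25, for which DN1eP were sorted as negative, and the part of the gate in this difference was not tested. Il7r, the receptor chain that binds IL-7, stood at 167, 109.8, 109.8 and 105.2 FPKM in DN1eP-NKT and 499.7, 245, 247 and 207 FPKM in DN1eP, a set-adjusted change of -1.23 ± 0.35 (adjusted p = 0.00981). Every DN1eP-NKT library was below every DN1eP library. Il2rb, the beta chain, had 469.7, 529.7, 512 and 511 FPKM in DN1eP-NKT and 449, 235, 284 and 312 FPKM in DN1eP, and the shared gamma chain Il2rg had 432, 449, 376 and 403 FPKM in DN1eP-NKT and 2363, 1484, 1457 and 1528 FPKM in DN1eP. Neither passed (set-adjusted changes -0.16 ± 0.25 and -0.41 ± 0.23, adjusted p = 0.668 and 0.174). Thymic libraries also differed between sets, with 291 to 445 FPKM of Il2rg in the higher and 841 to 1464 FPKM in the lower. Il4ra, the IL-4 receptor chain that also pairs with the gamma chain, rose by 1.16 ± 0.32 (adjusted p = 0.00758, and 0.058 with a pseudocount of 0.1). In all, 2 of the 13 tested genes of IL-2 and IL-7 receptors and signalling rose and 2 fell, of which 1 fell when any single DN1eP library among 2 to 4 or DN1eP-NKT library 1 or 2 was left out, and likewise for several thymic libraries.

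Genes listed here as the STAT5 response rose in 15 of 24 cases and fell in none beyond the set difference. Their median set-adjusted log2 change was 1.58 against -0.04 over all genes. Other signals can also act on genes of this list, and the part of STAT5 in the rises was not tested. All 15 were above thymic NKT cells of the higher set, and for 2 of them DN1eP was also below thymic NKT cells of its own. Socs1 (mm9 chr16:10783902-10785629), a feedback inhibitor of cytokine signalling, had 98.7, 68.3, 83.7 and 101.1 FPKM in DN1eP-NKT and 1.20, 0.897, 0 and 1.52 FPKM in DN1eP. Thymic libraries of the higher set held 13.4 to 41.5 FPKM and those of the lower set 0.260 to 3.60 FPKM, so part of the raw gap followed the sets, and the set-adjusted change was 2.13 ± 0.32 (adjusted p = 1.72e-05). Pim2, a survival kinase, had 148, 115, 101.3 and 104 FPKM in DN1eP-NKT and 14.9, 12.9, 14.9 and 8.10 FPKM in DN1eP. It rose by 2.22 ± 0.37 (adjusted p = 6.83e-05), and DN1eP-NKT exceeded all 18 thymic libraries, which reached 24.2 FPKM. Myc, a growth regulator, stood at 48.4, 83.0, 98.4 and 102 FPKM in DN1eP-NKT and 31.1, 10.8, 21.3 and 11.9 FPKM in DN1eP. Its rise of 2.03 ± 0.36 (adjusted p = 0.000135) came from both sides, with DN1eP-NKT 0.84 above and DN1eP -1.20 from thymic NKT cells of the same set on the log2 scale. Lif, a cytokine of the IL-6 family, reached 32.7, 64.7, 81.3 and 61.8 FPKM in DN1eP-NKT and was listed at 0 in 3 DN1eP libraries and at 0.253 FPKM in library 2. The rise was 5.01 ± 0.39 (adjusted p = 7.16e-10). Tnfrsf4, the co-stimulatory receptor OX40, rose by 2.34 ± 0.45 (adjusted p = 0.000366), with 17.9, 7.33, 14.5 and 7.99 FPKM in DN1eP-NKT against 0.205, 2.87, 3.85 and 2.16 FPKM in DN1eP.

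**Figure D4:**
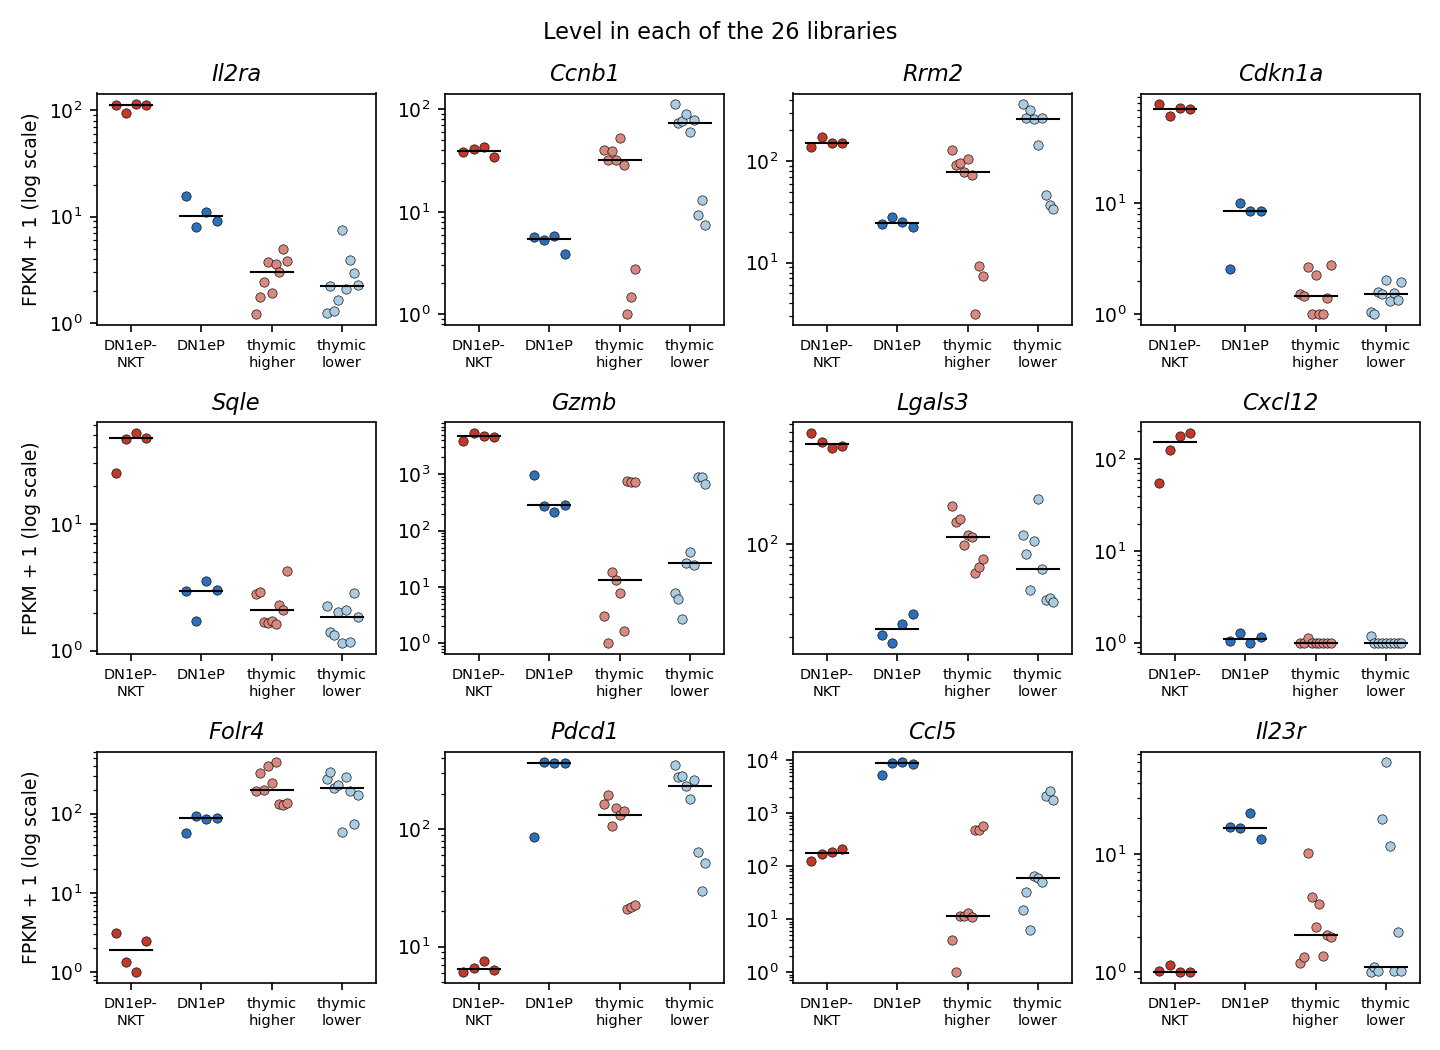
FPKM + 1 on a log axis for 12 genes, 1 point per library, in the 4 DN1eP-NKT libraries, the 4 DN1eP libraries, the 9 thymic NKT libraries of the higher set and the 9 of the lower set, with a line at each median. Il2ra, Cdkn1a, Sqle and Cxcl12 are highest in DN1eP-NKT, while Ccl5 is highest in DN1eP and Folr4 is lower in DN1eP-NKT than in every other library.

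Mitosis genes were the most uniform group. All 32 tested members rose (median set-adjusted log2 change 3.23), 30 of them beyond each set difference separately, and in each of the 32 the DN1eP-NKT libraries lay above all DN1eP libraries, as they did for 41.1% of all genes (57% lay apart in either direction). For 31 members DN1eP-NKT was above thymic NKT cells of its set, for 30 DN1eP was below those of its set, and for 30 both held. Ccnb1 (mm9 chr13:101548694-101556441), the cyclin that takes cells into mitosis, had 37.7, 39.8, 41.8 and 33.1 FPKM in DN1eP-NKT and 4.63, 4.31, 4.76 and 2.92 FPKM in DN1eP. In stage 3 thymic libraries it stood at 0 to 1.77 FPKM in the higher set and 6.43 to 12.2 FPKM in the lower set, so DN1eP was below stage 3 cells of its own set. Its set-adjusted change was 4.56 ± 0.31 (adjusted p = 1.39e-10), larger than the raw change of 2.93, because thymic cells had less Ccnb1 in the higher set. Aurkb, a kinase of chromosome segregation, rose by 4.53 ± 0.42, with 37.8, 54.0, 82.2 and 75.5 FPKM in DN1eP-NKT against 3.97, 0, 1.57 and 1.46 FPKM in DN1eP (adjusted p = 1.29e-08). Cdca3, which triggers entry into mitosis, rose by 4.396 ± 0.31, Nusap1, a spindle protein, by 4.25 ± 0.26, the second B cyclin Ccnb2 by 4.11 ± 0.37 and the cytokinesis motor Kif20a by 4.06 ± 0.34 (adjusted p = 2.18e-10, 2.51e-11, 7.4e-09 and 2.99e-09). The phosphatase gene Cdkn3, a regulator of CDKs, had 21.2, 36.7, 41.2 and 18.7 FPKM in DN1eP-NKT and 3.08, 4.80, 0 and 0.902 FPKM in DN1eP, a rise of 5.10 ± 0.75 (adjusted p = 3.25e-05) although thymic libraries of the lower set held 3.44 to 64.2 FPKM. For this gene DN1eP-NKT lay 2.01 and DN1eP -3.09 from thymic NKT cells of the same set on the log2 scale.

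Promoters of mitosis genes are known to carry a cell cycle element called CHR, read by the DREAM and MuvB complexes, and CCAAT boxes, read by NF-Y. Since the mitosis genes moved together, these letters were looked for in RefSeq promoters (250 bases before to 50 after the transcription start, GRCm38.p6), on both strands, as TTTGAA or TTTAAA for CHR and as CCAAT. Of the 32 mitosis genes 27 had a promoter in the table. CHR letters occurred in 24 of these (88.9%), against 22.4% of the 8244 tested genes with a promoter, and CCAAT in 24 (88.9%), against 43.5%. DNA replication genes held CHR letters in 9 of 26 cases (34.6%), and cholesterol genes in 3 of 16, but CCAAT in 16 of 16. A match is a description of the letters and not a binding site. Shown are the promoters of 3 genes named above that hold both and of Nusap1, which rose as much and holds neither. Capitals mark the matches, and bases are counted from 1 at the transcription start. In Ccnb1 (chr13:100786437-100786736, minus strand) CHR begins at base -42, in Ccnb2 (chr9:70421505-70421804, minus strand) at -167 and 5, and in Cdca3 (chr6:124829926-124830225, plus strand) at 31. The Nusap1 promoter lies at chr2:119618048-119618347, plus strand.
Ccnb1: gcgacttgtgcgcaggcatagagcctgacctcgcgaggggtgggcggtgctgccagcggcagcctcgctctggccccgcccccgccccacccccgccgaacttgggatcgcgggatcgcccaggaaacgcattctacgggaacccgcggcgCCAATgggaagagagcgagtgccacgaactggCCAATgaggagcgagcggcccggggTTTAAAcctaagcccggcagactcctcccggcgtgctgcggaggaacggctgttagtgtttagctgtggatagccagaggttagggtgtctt
Ccnb2: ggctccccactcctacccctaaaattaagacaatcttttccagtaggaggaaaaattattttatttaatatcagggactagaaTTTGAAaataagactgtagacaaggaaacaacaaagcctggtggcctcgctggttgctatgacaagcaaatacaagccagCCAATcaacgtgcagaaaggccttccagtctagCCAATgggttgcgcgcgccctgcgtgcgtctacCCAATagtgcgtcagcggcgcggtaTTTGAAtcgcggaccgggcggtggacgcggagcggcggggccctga
Cdca3: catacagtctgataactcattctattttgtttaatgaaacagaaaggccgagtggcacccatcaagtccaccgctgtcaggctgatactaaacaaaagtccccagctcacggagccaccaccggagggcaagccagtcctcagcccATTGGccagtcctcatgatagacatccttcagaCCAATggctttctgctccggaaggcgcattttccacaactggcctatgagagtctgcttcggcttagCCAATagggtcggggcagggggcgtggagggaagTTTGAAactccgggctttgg
Nusap1: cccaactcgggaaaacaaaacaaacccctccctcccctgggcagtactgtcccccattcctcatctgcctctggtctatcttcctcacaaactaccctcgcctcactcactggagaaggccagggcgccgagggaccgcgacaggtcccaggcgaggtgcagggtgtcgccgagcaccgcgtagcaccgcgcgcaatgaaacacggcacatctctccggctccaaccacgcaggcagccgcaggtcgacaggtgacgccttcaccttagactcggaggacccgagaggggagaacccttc

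DNA replication genes rose in 25 of 32 cases, with none lower (median set-adjusted log2 change 1.81). For all 25, DN1eP was below thymic NKT cells of its set, and for 16 DN1eP-NKT was also above those of its own. Rrm2, a subunit of the enzyme that makes deoxyribonucleotides, had 135, 173, 151 and 151 FPKM in DN1eP-NKT and 23.1, 27.2, 24.1 and 21.3 FPKM in DN1eP, a rise of 4.47 ± 0.30 (adjusted p = 1.39e-10). Uhrf1, which carries DNA methylation through replication, had 58.0, 72.9, 75.1 and 78.9 FPKM in DN1eP-NKT and 4.57, 5.17, 5.15 and 7.33 FPKM in DN1eP and rose by 3.44 ± 0.24 (adjusted p = 1.94e-10). In both genes the 4 values of each group were close together and far from the other group. Tk1 (thymidine kinase), Ccne2 (a G1/S cyclin), Cdc45 and Gins2 (parts of the replicative helicase) rose by 3.73 ± 0.40, 3.27 ± 0.43, 2.96 ± 0.35 and 2.78 ± 0.33 (adjusted p = 1.96e-07, 2.6e-06, 5.48e-07 and 8.17e-07).

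Some inhibitors of the cell cycle rose beside the genes of division, and others did not. The list is mixed, and its rises include the D cyclin gene Ccnd1 and the kinase gene Cdk6. Of 16 tested cell cycle inhibitors and D cyclins with their kinases, 9 rose and 3 fell, and 8 of the 9 were above thymic NKT cells of the higher set. Cdkn1a (mm9 chr17:29227931-29237667), which encodes the CDK inhibitor p21, had 77.6, 59.6, 71.5 and 69.3 FPKM in DN1eP-NKT and 1.57, 9.06, 7.51 and 7.52 FPKM in DN1eP, where library 1 was lowest. Thymic libraries did not exceed 1.76 FPKM, and the set-adjusted rise was 3.33 ± 0.45 (adjusted p = 4.85e-06). Cdkn2a, the locus of p16 and p19Arf, had 26.6, 47.2, 52.0 and 46.2 FPKM in DN1eP-NKT and was listed at 0 in 3 DN1eP libraries, with 1.25 FPKM in library 2 (rise 3.75 ± 0.37, adjusted p = 3.8e-08). Cdkn2b, the neighbouring gene for p15, had 6.83, 7.09, 7.49 and 10.2 FPKM in DN1eP-NKT and was listed at 0 in all 4 DN1eP libraries. Cdkn2c (p18) rose by 2.13 ± 0.29 and the G1 kinase Cdk6 by 2.14 ± 0.48 (adjusted p = 4.95e-06 and 0.00147). Gadd45g, a stress gene that restrains division, had 56.5, 54.4, 57.3 and 56.4 FPKM in DN1eP-NKT and 0.5004, 1.04, 0 and 0.586 FPKM in DN1eP, with 4.48 ± 0.40 as set-adjusted rise (adjusted p = 6.88e-09). Btg2, an anti-proliferative immediate early gene, went the other way. It had 28.8, 52.1, 56.8 and 44.9 FPKM in DN1eP-NKT and 224, 320.2, 393 and 316 FPKM in DN1eP, a change of -2.97 ± 0.26 (adjusted p = 6.69e-09) to which both sides contributed (-1.33 and 1.64 from thymic NKT cells of the same set).

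Cholesterol synthesis genes rose in 14 of 23 cases and none fell (median 1.31). For all 14 it was DN1eP-NKT that stood above thymic NKT cells of its set, and for none of them did the DN1eP distance pass. Sqle (mm9 chr15:59146647-59162748), squalene epoxidase, had 24.3, 45.7, 50.9 and 46.6 FPKM in DN1eP-NKT and 1.93, 0.716, 2.52 and 2.02 FPKM in DN1eP (rise 3.48 ± 0.37, adjusted p = 1.04e-07). Thymic libraries reached only 3.24 FPKM. Idi1 and Lss, further enzymes of the pathway, rose by 3.02 ± 0.38 and 2.91 ± 0.45 (adjusted p = 1.58e-06 and 2.64e-05). In fatty acid synthesis 5 of 12 genes rose. The desaturases Fads2 and Fads1 led with 3.52 ± 0.33 and 1.93 ± 0.28 (adjusted p = 1.4e-08 and 1.13e-05). Fads2 had 4.24, 19.1, 10.6 and 17.5 FPKM in DN1eP-NKT and was listed at 0 in DN1eP libraries 2 to 4. Fasn, the fatty acid synthase, had 52.5, 53.6, 64.99 and 68.96 FPKM in DN1eP-NKT and 1.16, 1.496, 3.95 and 2.27 FPKM in DN1eP, but most of that gap was also seen between thymic sets (20.8 to 63.6 FPKM in the higher and 2.56 to 5.90 FPKM in the lower), leaving 1.16 ± 0.30 (adjusted p = 0.00432).

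Glycolysis and hypoxia genes rose in 11 of 23 cases and amino acid and folate metabolism genes in 8 of 20, with none lower in either list. Asked for an excess over each set difference separately, 3 and 5 remained called. Slc16a3, a lactate exporter, had 5.47, 25.1, 39.2 and 37.7 FPKM in DN1eP-NKT and was listed at 0 in DN1eP libraries 2 to 4 (rise 2.06 ± 0.45, adjusted p = 0.00125). For Hk1 and Pgam1, enzymes of glycolysis, the change lay on the DN1eP side. Hk1 had 42.8, 45.4, 50.1 and 49.8 FPKM in DN1eP-NKT, within a thymic range of 38.3 to 46.6 FPKM in that set but for the last 2 values, and 3.92, 2.57, 0.704 and 5.06 FPKM in DN1eP, below the 5.98 to 14.1 FPKM of thymic NKT cells there. Its rise was 1.75 ± 0.33 and that of Pgam1 1.63 ± 0.33 (adjusted p = 0.000227 and 0.000488). Asns, asparagine synthetase, rose by 2.50 ± 0.50, Psat1 and Shmt2, which make serine and use it for folate units, by 1.83 ± 0.30 and 1.72 ± 0.25, and the alanyl-tRNA synthetase Aars by 1.29 ± 0.20 (adjusted p = 0.000538, 4.85e-05, 1.02e-05 and 2.99e-05).

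Genes of stromal cells were in the DN1eP-NKT libraries. Of 28 stroma markers in the files 19 were tested and 18 of these rose, all through the DN1eP-NKT side (median 3.50). Their summed level was 122, 482, 691 and 669.6 FPKM in DN1eP-NKT libraries 1 to 4 and 43.4, 6.20, 3.56 and 9.68 FPKM in DN1eP libraries 1 to 4, against 0.460 to 5.20 FPKM in thymic NKT libraries. Of the 28 markers, 1 was at 0 in all DN1eP-NKT libraries and 4 in all DN1eP libraries. Cxcl12 (mm9 chr6:117118553-117131386), a chemokine of bone marrow stroma, had 53.5, 125, 179 and 191 FPKM in DN1eP-NKT and 0.0582, 0.306, 0 and 0.173 FPKM in DN1eP. Its set-adjusted rise of 6.796 ± 0.32 exceeded that of every other gene named here (adjusted p = 1.18e-13). The matrix genes Fn1, Col6a2, Col6a1, Bgn and Col1a2 rose by 5.07 ± 0.49, 4.58 ± 0.46, 4.48 ± 0.40, 4.42 ± 0.43 and 4.399 ± 0.43 (each with an adjusted p of 5.05e-08 or less). Dll1, the ligand named in the label of the stromal layer, had 0.647, 6.94, 8.78 and 8.49 FPKM in DN1eP-NKT and was listed at 0 in all 4 DN1eP libraries. It was at 1 FPKM in too few libraries to be tested. Library 1 was the lowest DN1eP-NKT library for all 6 named stroma genes and for Dll1.

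**Figure D5:**
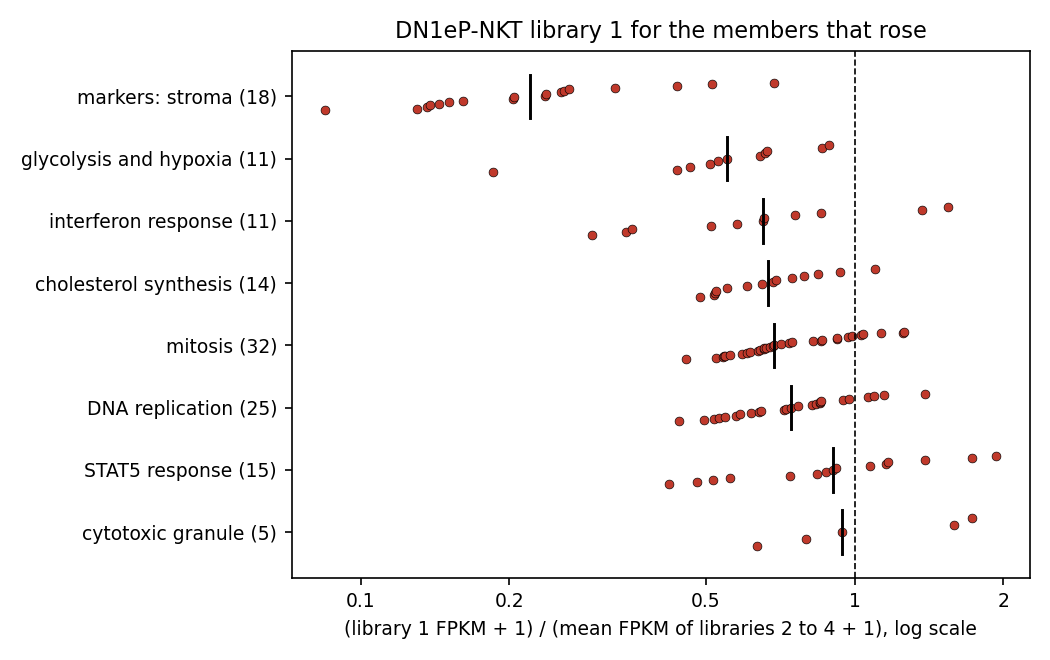
For members that rose in 8 lists, the level in DN1eP-NKT library 1 over the mean of libraries 2 to 4 (each FPKM + 1, log axis), 1 point per gene with a bar at the median. Stroma markers have a median ratio of 0.220, glycolysis genes 0.553, mitosis genes 0.685 and cytotoxic granule genes 0.945.

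The ratio of DN1eP-NKT library 1 to the mean of libraries 2 to 4 ordered the rising lists. Its median was 0.220 for the 18 stroma markers, 0.553 for glycolysis and hypoxia, 0.652 for the interferon response, 0.666 for cholesterol synthesis, 0.685 for mitosis, 0.903 for the STAT5 response and 0.945 for cytotoxic granule genes, against 0.819 for all genes that rose and 0.906 for all genes tested. Without library 1 of DN1eP-NKT, 14 cholesterol, 14 glycolysis, 32 mitosis and 18 stroma genes were higher. How far RNA of OP9 cells enters these rises was not tested.

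Interferon response genes rose in 11 of 22 cases and fell in 2 (1 without DN1eP library 2 or 3, DN1eP-NKT library 1 and most thymic libraries, each left out alone), and all 11 were above thymic NKT cells of the higher set. The 3 Ifitm genes, whose products hinder virus entry, led. Ifitm1 had 687, 674, 891 and 849.5 FPKM in DN1eP-NKT and 72.3, 41.5, 50.4 and 64.2 FPKM in DN1eP, and no thymic library exceeded 21.3 FPKM (rise 4.19 ± 0.53, adjusted p = 2.63e-06). Ifitm2 had 1115, 2737, 3152 and 3559 FPKM in DN1eP-NKT and 334, 153, 174 and 130.5 FPKM in DN1eP (rise 5.38 ± 0.63, adjusted p = 2.3e-06), and Ifitm3 had 382, 959, 1153 and 1218 FPKM in DN1eP-NKT and 126, 29.7, 64.9 and 44.5 FPKM in DN1eP (rise 5.22 ± 0.67, adjusted p = 7.22e-06). DN1eP-NKT library 1 was lowest for Ifitm2 and Ifitm3, the way stroma markers were, and not for Ifitm1. Bst2, another interferon-induced antiviral gene, rose by 1.61 ± 0.30 (adjusted p = 0.000201).

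Gzma, Gzmb and Gzmc, granzymes of killer cell granules, rose, while Gzmm fell. Of 13 cytotoxic granule genes 5 rose and 3 fell. Gzmb (mm9 chr14:56877695-56881097), granzyme B, had 3940, 5388, 4818 and 4632 FPKM in DN1eP-NKT and 978, 273, 209.9 and 287 FPKM in DN1eP. Both groups were above the thymic mean of their set, by 7.77 for DN1eP-NKT and 2.84 for DN1eP on the log2 scale, and the set-adjusted rise was 4.93 ± 0.71 (adjusted p = 3.01e-05). Gzma, granzyme A, had 6450, 3986, 3564 and 3645 FPKM in DN1eP-NKT and 954, 454, 499.6 and 514 FPKM in DN1eP (rise 4.49 ± 0.54, adjusted p = 2.61e-06). Library 1 was the highest DN1eP library for both granzymes, at 978 and 954 FPKM. Gzmc rose by 2.48 ± 0.45 (adjusted p = 0.00017). Gzmm, granzyme M, was low in both groups, with 1.48, 1.02, 0.748 and 2.11 FPKM in DN1eP-NKT and 1.62, 4.21, 5.07 and 4.27 FPKM in DN1eP, which overlap (change -1.23 ± 0.32, adjusted p = 0.00526, and 0.0682 with a pseudocount of 0.1). Among NK receptors and adaptors 10 of 25 fell, 1 rose and 14 were not called. In all 10 falls DN1eP was above the thymic mean of its set. That mean includes stages 1 and 2, which were sorted as NK1.1-, and the part of this gate in the distance was not tested. Klrb1c, which encodes NK1.1, had 56.8, 11.3, 13.1 and 14.0 FPKM in DN1eP-NKT and 495, 216, 234 and 170.4 FPKM in DN1eP (change -3.72 ± 0.49, adjusted p = 6.34e-06). Ncr1, the receptor NKp46, had 36.2, 1.17, 3.21 and 4.23 FPKM in DN1eP-NKT and 42.1, 60.0, 45.8 and 49.3 FPKM in DN1eP (change -2.81 ± 0.63, adjusted p = 0.00162). DN1eP-NKT library 1 was the highest of its group for both, and without it the changes were -4.24 for Klrb1c and -3.65 for Ncr1. Fcgr3, the receptor CD16, also fell (change -2.34 ± 0.38, adjusted p = 4e-05). Some members of the granzyme, Ifitm and Klr families have closely similar copies, among which the authors' counting may have split reads. Which of the genes named here this touches was not tested.

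Cytokines and ligands moved both ways, with 6 of 18 effector cytokine genes higher and 3 lower. Without DN1eP library 4 or without stage 1 library 2 only 1 was lower. Il13 and Il10, cytokines of type 2 and regulatory responses, rose by 2.66 ± 0.49 and 2.97 ± 0.36 (adjusted p = 0.000202 and 9.9e-07). Il13 had 40.8, 57.1, 51.7 and 47.8 FPKM in DN1eP-NKT and was listed at 0 in 3 DN1eP libraries, with 1.82 FPKM in library 2, while thymic libraries reached 104 FPKM. Il10 had 24.8, 5.99, 10.3 and 5.52 FPKM in DN1eP-NKT and 0.751, 0, 0.830 and 0 FPKM in DN1eP, and thymic libraries reached 0.269 FPKM. Lta, lymphotoxin alpha, rose by 1.93 ± 0.34 (adjusted p = 0.000117). Chemokine ligands fell in 6 of 9 cases, each time with DN1eP above thymic NKT cells of its set and with no DN1eP-NKT distance that passed. When the excess over each set difference had to pass separately, 2 of these falls remained called. Ccl5 (mm9 chr11:83339281-83344020), a chemokine that attracts T cells, had 123, 167, 183 and 209 FPKM in DN1eP-NKT and 5221, 9091, 9317 and 8562 FPKM in DN1eP, a change of -3.12 ± 0.45 (adjusted p = 1.62e-05). Thymic libraries of the lower set held 5.34 to 2651 FPKM, so DN1eP was above all of them. Xcl1, which attracts dendritic cells, had 191, 49.2, 59.8 and 51.0 FPKM in DN1eP-NKT and 1020, 1246, 915 and 1036 FPKM in DN1eP (change -3.46 ± 0.74, adjusted p = 0.00153). Ccl1, a ligand of CCR8, was the only ligand that rose, by 4.01 ± 0.86 (adjusted p = 0.00146), but the groups overlapped at 15.2 FPKM in DN1eP-NKT library 4 and 15.7 FPKM in DN1eP library 1.

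Some galectin and S100 genes rose to high levels. Of 17 galectin, annexin and S100 genes 6 rose and 1 fell. Lgals3 (mm9 chr14:47993535-48005842), galectin-3, had 683, 588, 528 and 548 FPKM in DN1eP-NKT and 19.7, 17.0, 24.1 and 29.1 FPKM in DN1eP, with 35.9 to 216 FPKM in thymic libraries. DN1eP-NKT lay above and DN1eP below every thymic library, and the set-adjusted rise was 3.98 ± 0.33 (adjusted p = 2.99e-09). S100a4, a calcium-binding protein of motile cells, had 1398, 1672, 1712 and 1621 FPKM in DN1eP-NKT and 218, 83.3, 65.2 and 57.4 FPKM in DN1eP (rise 2.86 ± 0.44, adjusted p = 3.19e-05). Lgals1, galectin-1, rose by 3.07 ± 0.30 (adjusted p = 3.14e-08), with DN1eP library 1 at 876 FPKM against 347 to 399.7 FPKM in the others.

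TCR complex and signalling genes fell in 16 of 28 cases and none rose (median -0.84). Asked for an excess over each set difference separately, 4 fell, and with a test against a 2-fold change none did. DN1eP-NKT was below thymic NKT cells of its set for 8 of the 16 and DN1eP above those of its own for 9. Cd247, the zeta chain, had 87.7, 111, 117 and 128 FPKM in DN1eP-NKT and 229, 381, 325 and 257 FPKM in DN1eP (change -1.50 ± 0.24, adjusted p = 3.91e-05). The co-receptor Cd28 had 76.9, 56.6, 58.4 and 62.3 FPKM in DN1eP-NKT and 100, 151, 184 and 126 FPKM in DN1eP (change -1.23 ± 0.31, adjusted p = 0.00415). Txk, a Tec family kinase, and Ptpn22, a phosphatase that damps TCR signals, fell too (changes -1.46 ± 0.24 and -1.43 ± 0.23, adjusted p = 5.39e-05 and 3.1e-05). Of the CD3 chains, Cd3g had 383, 481, 612 and 550.5 FPKM in DN1eP-NKT and 2823, 2097, 2050 and 1736 FPKM in DN1eP (change -1.19 ± 0.26, adjusted p = 0.00125), and Cd3d and Cd3e fell too (changes -0.84 ± 0.25 and -0.74 ± 0.21, adjusted p = 0.011 and 0.00925).

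Transcription factors of T cells fell in 10 of 29 cases and rose in 1. Tox, needed for CD4+ and NKT cell development, had 16.1, 10.7, 11.9 and 10.1 FPKM in DN1eP-NKT and 38.7, 89.0, 108 and 100.2 FPKM in DN1eP (change -2.16 ± 0.33, adjusted p = 1.95e-05). Lef1, a Wnt pathway factor of early NKT cells, had 6.81, 9.28, 6.46 and 11.8 FPKM in DN1eP-NKT and 25.6, 39.6, 35.7 and 40.3 FPKM in DN1eP (change -2.10 ± 0.28, adjusted p = 4.21e-06). Ikzf2, the gene for Helios, fell as well (change -2.92 ± 0.38, adjusted p = 2.61e-06). In Tox and Lef1 it was DN1eP-NKT that lay below thymic NKT cells of its set, with distances of -1.88 and -2.20 on the log2 scale. The factors that define NKT subsets did not meet the rule. Zbtb16 (mm9 chr9:48462402-48644050), which encodes the NKT master regulator PLZF, had 6.90, 4.51, 5.08 and 5.42 FPKM in DN1eP-NKT and 2.73, 6.77, 1.75 and 3.29 FPKM in DN1eP, against 12.8 to 113 FPKM in thymic libraries of the higher set and 0.956 to 16.6 FPKM in those of the lower set. Its raw change of 0.58 was positive and its set-adjusted change -2.16 ± 0.35 (adjusted p = 4.12e-05), so it was not counted as changed in either direction. Within the higher set, DN1eP-NKT lay -2.87 from the thymic mean (adjusted p = 1.41e-09). Tbx21, the factor of interferon-producing cells, had 19.9, 39.8, 49.6 and 57.6 FPKM in DN1eP-NKT and 8.15, 6.98, 7.01 and 6.12 FPKM in DN1eP, with 14.5 to 118 FPKM in thymic libraries of the higher set and 1.67 to 16.6 FPKM in those of the lower set (set-adjusted change -0.56 ± 0.35, adjusted p = 0.235). Gata3 had 43.3, 43.1, 50.5 and 54.0 FPKM in DN1eP-NKT and 42.4, 56.5, 60.2 and 55.7 FPKM in DN1eP (set-adjusted change 0.04 ± 0.21, adjusted p = 0.907). Egr2, which TCR signals induce before PLZF, had 4.18, 3.72, 4.10 and 0.826 FPKM in DN1eP-NKT and 1.62, 2.97, 4.97 and 4.65 FPKM in DN1eP (set-adjusted change -0.54 ± 0.40, adjusted p = 0.32).

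The IL-17 programme fell in 13 of 23 cases and rose in 2. For 12 of the 13, DN1eP was above thymic NKT cells of its set, and for 6 DN1eP-NKT was below those of its own. Il23r, the receptor for IL-23, had 0.0269, 0.161, 0 and 0 FPKM in DN1eP-NKT and 16.0, 15.5, 21.2 and 12.4 FPKM in DN1eP (change -3.45 ± 0.47, adjusted p = 4.99e-06). Il1r1, the IL-1 receptor, had 0.298, 1.29, 2.28 and 0.335 FPKM in DN1eP-NKT and 15.4, 22.1, 31.5 and 27.1 FPKM in DN1eP (change -3.45 ± 0.54, adjusted p = 3.5e-05). Blk, a Src family kinase of IL-17-producing T cells, had 0.0541, 1.45, 1.07 and 0.669 FPKM in DN1eP-NKT and 30.9, 57.3, 41.5 and 65.5 FPKM in DN1eP (change -4.50 ± 0.70, adjusted p = 5.5e-05). All 4 DN1eP libraries carried these genes. Il17f (mm9 chr1:20767230-20774351), an IL-17 family cytokine, was listed at 0 in all 4 DN1eP-NKT libraries and had 2.16, 199.7, 146 and 158 FPKM in DN1eP, so its level came from libraries 2 to 4. Its set-adjusted change was -5.26 ± 1.11 (adjusted p = 0.0014), and -6.69 without DN1eP library 1. Sox13, a factor of gamma-delta T cells, and Cd163l1, a scavenger receptor relative, fell too (changes -3.38 ± 0.32 and -3.34 ± 0.53, adjusted p = 1.64e-08 and 4.27e-05). Of 6 tested gamma-delta T cell markers 5 fell. Their summed level was 33.7, 39.0, 36.5 and 41.7 FPKM in DN1eP-NKT libraries 1 to 4, 86.6, 234, 254 and 302 FPKM in DN1eP libraries 1 to 4 and 10.8 to 232 FPKM in thymic NKT libraries. Of the 6, 5 (Blk, Sox13, Cd163l1, Il17re and 5830411N06Rik) also stand in the IL-17 list, so these counts are largely of the same genes, and whether gamma-delta T cells take part in this result was not tested.

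Genes of mast cells and basophils were far higher in DN1eP. Of 7 tested markers 6 fell, each through the DN1eP side. Summed over 14 markers they had 34.5, 7.02, 4.402 and 6.93 FPKM in DN1eP-NKT and 80.2, 626, 522 and 582 FPKM in DN1eP, libraries 1 to 4 each, and 0.384 to 125 FPKM in thymic libraries. Prss34 (mm9 chr17:25435339-25437106), a basophil protease, was listed at 0 in all 4 DN1eP-NKT libraries and had 36.7, 375, 334 and 363 FPKM in DN1eP (change -6.57 ± 1.19, adjusted p = 0.000397). Ms4a2, a chain of the IgE receptor, was likewise at 0 in DN1eP-NKT and had 5.20, 5.65, 4.54 and 11.5 FPKM in DN1eP (change -2.74 ± 0.29, adjusted p = 8.3e-08). Of the myeloid granule genes, Mpo (myeloperoxidase) and Ctsg (cathepsin G) fell (changes -5.29 ± 0.60 and -3.09 ± 0.41, adjusted p = 5.61e-07 and 3.04e-06). Mpo had 0.0262, 0, 0 and 0 FPKM in DN1eP-NKT and 271, 28.8, 26.6 and 17.97 FPKM in DN1eP, highest in library 1, where the summed mast cell markers were lowest. The 20 myeloid and dendritic markers, of which 3 of 8 tested fell, summed to 4.91, 2.61, 0.502 and 4.55 FPKM in DN1eP-NKT and 400.5, 46.2, 49.1 and 41.9 FPKM in DN1eP, and 13 of them were at 0 in all DN1eP-NKT libraries and 3 in all DN1eP libraries. Of 14 mast cell markers, 8 were at 0 in all DN1eP-NKT libraries and 5 at 0 in all DN1eP libraries. The part of such cells in the other falls was not tested.

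Some genes that all thymic NKT libraries carried were nearly absent from DN1eP-NKT. In the list called type 2 programme 7 of 17 genes fell and 4 rose, so the list as a whole did not move 1 way. Its falls include Folr4, Ramp1, Ramp3 and Plac8, described next. The list was chosen with earlier results of these data known, so its count of falls is no independent result about type 2 genes. Folr4 (mm9 chr9:14690258-14708395), a folate receptor relative found on T cells, had 2.17, 0.354, 0 and 1.47 FPKM in DN1eP-NKT and 55.5, 92.9, 85.6 and 87.0 FPKM in DN1eP, against 57.2 to 446 FPKM in thymic libraries (change -5.75 ± 0.53, adjusted p = 4.94e-08). Ramp1 (mm9 chr1:93076399-93121773), a partner of the receptor for the neuropeptide CGRP, had 0.340, 0.625, 1.03 and 0.324 FPKM in DN1eP-NKT and 13.04, 31.1, 40.6 and 29.6 FPKM in DN1eP and 9.40 to 159 FPKM in thymic libraries (change -4.65 ± 0.36, adjusted p = 6.85e-10). For both, DN1eP-NKT was below all 18 thymic libraries. Plac8 had 0.752, 16.4, 4.93 and 24.7 FPKM in DN1eP-NKT and 201, 414, 296 and 304 FPKM in DN1eP (change -4.59 ± 0.74, adjusted p = 0.000106). Ramp3, a relative of Ramp1, had 0.181, 0, 0.796 and 0.748 FPKM in DN1eP-NKT and 7.04, 293, 259 and 260.4 FPKM in DN1eP, with DN1eP library 1 far below the other DN1eP libraries. The change was -6.23 ± 1.07 (adjusted p = 0.000227), and without DN1eP library 1 the value was -7.50.

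Receptors for homing and egress fell in 7 of 24 cases and rose in 2. Ccr9, which guides cells to the gut, had 0.894, 0.178, 0.393 and 0.922 FPKM in DN1eP-NKT and 1.93, 136, 107 and 104 FPKM in DN1eP (change -5.12 ± 1.04, adjusted p = 0.00112). Ccr7, which guides cells within the thymus and to lymph nodes, had 4.65, 2.90, 3.65 and 2.58 FPKM in DN1eP-NKT and 4.76, 136, 152 and 140.3 FPKM in DN1eP (change -3.61 ± 0.84, adjusted p = 0.00287). In DN1eP library 1 both were close to the DN1eP-NKT level, and without that library the changes were -6.45 and -4.77. Ccr8, the receptor for CCL1, and the integrin gene Itga4 also fell (changes -2.02 ± 0.26 and -3.50 ± 0.32, adjusted p = 2.68e-06 and 1.25e-08). Among checkpoint and co-stimulatory receptors 6 of 22 fell and 5 rose. Pdcd1 (mm9 chr1:95934882-95949130), which encodes PD-1, had 5.05, 5.52, 6.56 and 5.29 FPKM in DN1eP-NKT and 85.2, 372, 367 and 367 FPKM in DN1eP. The change was -4.42 ± 0.39 (adjusted p = 6.88e-09), and thymic libraries held 19.8 to 347 FPKM, all above DN1eP-NKT. Cd200r1, an inhibitory receptor, rose by 3.30 ± 0.45, with 27.5, 29.2, 24.7 and 21.2 FPKM in DN1eP-NKT and 2.80, 2.43, 3.25 and 3.65 FPKM in DN1eP (adjusted p = 4.35e-06).

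For the Notch pathway, 12 of 19 listed genes were tested. Of these 1 rose and 3 fell, where 13.7% of all genes rose and 12.1% fell. The falls numbered 6 when DN1eP library 1 was left out and 5 when stage 1 library 5 was. Dtx1, a Notch target in T cells, had 26.1, 89.3, 91.9 and 97.9 FPKM in DN1eP-NKT and 2.94, 2.59, 1.30 and 1.46 FPKM in DN1eP, and rose by 2.13 ± 0.39 (adjusted p = 0.000226). DN1eP-NKT library 1, which had the lowest sum of stroma markers, was also lowest for Dtx1. Dtx4 had 0.309, 0.264, 0.145 and 0.273 FPKM in DN1eP-NKT and 2.40, 4.58, 8.38 and 4.98 FPKM in DN1eP and fell, as did Hey1, a Notch-induced repressor (changes -2.48 ± 0.34 and -3.06 ± 0.69, adjusted p = 4.35e-06 and 0.00197). As deposited, 6 of 20 AP-1 and immediate early genes were higher and 4 lower. Beyond the set difference 7 fell and none rose. The count of falls depended on single libraries: it was 3 without DN1eP library 2 or 3, DN1eP-NKT library 3 or 4 or stage 1 library 2, and 4 without DN1eP-NKT library 1, where 1 gene rose, or DN1eP library 4. Fosl2, an AP-1 subunit, had 7.31, 18.9, 11.2 and 12.4 FPKM in DN1eP-NKT and 3.06, 69.3, 68.2 and 49.4 FPKM in DN1eP (change -2.93 ± 0.85, adjusted p = 0.0125). Nr4a2, an orphan nuclear receptor, had 1.45, 0.741, 0.573 and 0 FPKM in DN1eP-NKT and 0.483, 19.0, 22.04 and 15.5 FPKM in DN1eP (change -2.97 ± 0.69, adjusted p = 0.0023). In both genes DN1eP library 1 lay within or under the DN1eP-NKT range, and without it the changes were -3.91 and -3.90. SLAM family genes, known for their part in NKT selection, fell in 4 of 10 cases. Cd84 had 21.1, 15.4, 20.5 and 18.7 FPKM in DN1eP-NKT and 52.5, 54.0, 60.3 and 54.5 FPKM in DN1eP (change -1.85 ± 0.23, adjusted p = 1.34e-06), and Sh2d1a, the adaptor SAP, fell (change -1.09 ± 0.23, adjusted p = 0.000867).

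Of the genes behind the sort gates, Cd27 had 58.1, 43.4, 40.4 and 42.5 FPKM in DN1eP-NKT and 169.5, 241, 183 and 203 FPKM in DN1eP (change -1.87 ± 0.24, adjusted p = 2.67e-06), and DN1eP had been sorted as CD27+. Slamf6, which encodes Ly108, was listed at 0 in 3 DN1eP-NKT libraries and had 0.174, 13.01, 12.7 and 7.11 FPKM in DN1eP, although DN1eP were sorted as Ly108- (change -2.72 ± 0.68, adjusted p = 0.00445). The lowest of these DN1eP libraries was library 1, below DN1eP-NKT library 1 at 0.329 FPKM, and without it the change was -3.55. Cd24a had 0.191, 0.910, 0.502 and 0.472 FPKM in DN1eP-NKT and 0.936, 12.4, 15.9 and 7.64 FPKM in DN1eP (change -2.16 ± 0.66, adjusted p = 0.0156, and 0.064 with a pseudocount of 0.1). Cd5 had 9.26, 19.1, 14.8 and 19.2 FPKM in DN1eP-NKT and 19.2, 12.7, 12.3 and 23.4 FPKM in DN1eP, which overlap. Its call (-1.14 ± 0.26, adjusted p = 0.00184) rests on the set difference. It did not hold without DN1eP library 4, without DN1eP-NKT library 1 or without library 1 of both groups (-0.98, -0.93 and -0.85). Cd44 and Cxcr3 did not pass (set-adjusted changes -0.77 ± 0.30 and -0.62 ± 0.38, adjusted p = 0.0512 and 0.215). Falls outside these lists included Trf, the iron carrier transferrin (-4.69 ± 0.56), Chad, a matrix protein (-4.36 ± 0.45), Rgs2, a damper of G protein signals (-4.32 ± 0.48), Tnfaip3, an inhibitor of NF-kappaB (-4.44 ± 1.003), and Cpne8, a calcium-dependent phospholipid-binding protein (-4.69 ± 1.38), with adjusted p = 2.24e-06, 7.78e-08, 5.21e-07, 0.00249 and 0.0148.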

How the data were processed

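Gene expression was measured as FPKM by RNA-seq in 26 mouse libraries. Per the submitters' processing notes, the authors used TopHat2 2.0.6 and Cufflinks 2.1.1 on mm9, and the deposited FPKM values per gene carry confidence bounds. Kit per library, read depth and strand use are not given in the sources used here.

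FPKM of rows with the same symbol were summed. Of 23267 symbols, 86 that some file lacked and 13 whose estimate was marked failed or capped were left out. Values were log2(FPKM + 1), so changes of low genes are understated. Genes at 1 FPKM in at least 4 of 26 libraries were tested (11663). limma 3.58.1 in R 4.3.3 (trend and robust eBayes, Benjamini-Hochberg adjustment) was fitted to all libraries in 8 cells: DN1eP-NKT, DN1eP and each thymic stage split by library set. The sets were taken from an earlier pass over these files. A change needed an adjusted p under 0.05 for its excess over the mean set difference, and a raw change beyond 0 and beyond each of the 3 set differences on the same side. Every ± beside a change is a standard error, and every adjusted p beside one is limma's for the set-adjusted change. On simulated data with 200 changed genes, the rule recovered 23% of 2-fold and 81.5% of 4-fold changes, with 2 and 6 false calls. The simulation gave every group the same set difference, so it could not test whether that difference carries over. Its noise was drawn independently for each library, so none stood apart as library 1 does in the data. Its false calls therefore do not measure those in the data. The members and lists were chosen with earlier results of these data known. Genes named are the sort gate genes, receptor chains of the culture cytokines, NKT regulators, up to 6 called members per list by size of excess, and the 15 largest rises and falls without overlap at 10 FPKM or more. Dll1 was named after its values were seen. A few genes, 1 regulator among them, are not reported here. Promoter sequences are from RefSeq (GRCm38.p6), and gene coordinates are as deposited (mm9). Alternatives covered scaling, pseudocount, filter, row choice, weights, an additive set term, left-out libraries and a replicate block.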

Additional observations from a re-analysis of the deposited data

Results flagged for a closer look

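Within each group of 4 libraries, values in which a single library lay far from the others (by Dixon's test for 4 values on the log2 scale) were looked for over the genes given above and the summed marker lists. This held for 37 of 237 groups of values, where chance gives about 5%. Of these, 25 were DN1eP library 1, 8 were DN1eP-NKT library 1 and 4 another library.

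DN1eP-NKT library 1 was low in Bst2 (122 FPKM, against 232 to 248 FPKM in the other DN1eP-NKT libraries), Dll1 (0.647 against 6.94 to 8.78 FPKM), Dtx1 (26.1 against 89.3 to 97.9 FPKM), Fn1 (6.86 against 45.7 to 63.6 FPKM) and Sqle (24.3 against 45.7 to 50.9 FPKM). It was high in Il7r (167 against 105.2 to 109.8 FPKM), Klrb1c (56.8 against 11.3 to 14.0 FPKM) and Xcl1 (191 against 49.2 to 59.8 FPKM). DN1eP-NKT library 2 was low in Il2ra, at 92.7 FPKM, and library 4 in Egr2, at 0.826 FPKM.

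DN1eP library 1 was far below the other DN1eP libraries in the following genes. It had 4.76 FPKM of Ccr7, 167 of Ccr8, 1.93 of Ccr9, 2.44 of Itga4, 2.16 of Il17f, 1.92 of Sox13, 7.04 of Ramp3, 55.5 of Folr4 and 85.2 of Pdcd1. It was also low in Ccl5 (5221 FPKM), Cdkn1a (1.57), Cpne8 (78.3), Fosl2 (3.06), Nr4a2 (0.483), Prss34 (36.7), Rgs2 (109.3) and Trf (57.2). The same library was high in Gzma (954 FPKM), Gzmc (16.6), Il2rg (2363), Lgals1 (876) and Mpo (271). Its myeloid and dendritic markers summed to 400.5 FPKM, its mast cell and basophil markers to 80.2 FPKM and its CD4+CD8+ thymocyte markers to 30.4 FPKM, the last against 157 to 189 FPKM in DN1eP libraries 2 to 4. DN1eP library 2 alone held Cdkn2a (1.25 FPKM) and Il13 (1.82 FPKM) above 0.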

How the results depend on the processing

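Of 173 genes that the naming rule gave, 165 were called, 152 of these without losing the call when any single library was left out and 86 under every alternative. The count of 3010 changed genes became 1075 when the excess over each set difference had to pass and 425 against a 2-fold change. Leaving out single libraries gave 2593 to 3539 for that count and 7750 to 8141 for the 8098 genes called as deposited. Mitosis kept 30 and 29 of 32 genes under those stricter rules, cholesterol synthesis 12 and 9, stroma markers 16 and 14, the STAT5 response 9 and 4, glycolysis 3 and 0, and lower IL-17 programme genes 6 and 7. List counts without library 1 were added after seeing the data. Among 2 genes that were not called, the set-adjusted change of Il2rb was 0.11 under quantile normalization, 0.055 without library 1 of both groups and -0.291 to 0.020 without single libraries, and that of Gata3 was -0.000339 under quantile normalization, -0.0123 with array weights, -0.025 without library 1 of both groups and -0.0688 to 0.116 without single libraries. The cause was not tested. Same-numbered libraries of DN1eP-NKT and DN1eP deviated from their group means with correlations of 0.161, -0.0003, 0.021 and 0.0161. Libraries with unlike numbers gave -0.166 to 0.108, so only the libraries numbered 1 lay above that range. Whether those share an origin was not tested. With the number as a replicate block 3124 genes changed (1647 higher, 1477 lower, 2958 of them shared) and 8198 as deposited. Read depth, which limits precision, is not given.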
